A study of Mus musculus with 117 samples.

Results

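Microglia are the resident macrophages of the spinal cord, and after a crush injury they are joined by macrophages that enter from the blood. The 10 genes described here are textbook genes of these cells and were chosen by name: Trem2, Tyrobp, Cx3cr1, P2ry12, Csf1r, Aif1, Cd68, Gpnmb, Spp1 and Arg1, out of 27179 genes counted in each library. The choice was made with earlier results of these data known. They were followed through 117 libraries that held either RNA from a pulldown of tagged ribosomes aimed at astrocytes (RiboTag libraries, 70 in all) or RNA left in the flow-through of the same pulldown (Flow libraries, 47 in all). Genes used as markers of other cells were counted in RiboTag libraries as well, as given below. The authors report Trem2 and Tyrobp in reactive astrocytes after SCI, also from single-nucleus RNA-seq and from protein staining. Which cells the RNA of the 10 genes came from was not tested here. The question was how the RiboTag to Flow ratio of each gene compared between the Aldh1l1 and the mGfap mouse line and over the time after spinal cord injury (SCI).

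TREM2 is a lipid-sensing receptor that signals through its partner DAP12, the protein that Tyrobp encodes. CX3CR1, P2RY12 and CSF1R are receptors by which resident microglia sense neurons, extracellular nucleotides and the growth factors that keep them alive. IBA1 (Aif1) and the lysosomal protein CD68 are the usual histological markers of microglia and macrophages, GPNMB and osteopontin (Spp1) are found in lipid-laden phagocytes of injured tissue, and arginase 1 (Arg1) marks wound macrophages.

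All mice were C57BL/6. The Aldh1l1 mice, uninjured ones included, were reported as young adults of 3 to 4 months, and the injured mGfap mice were young adults. In the RiboTag strain, Cre recombination puts a hemagglutinin tag on a ribosomal protein, so only cells with a history of Cre activity and their descendants carry tagged ribosomes. In the first line Cre was Aldh1l1-CreERT2, a tamoxifen-dependent Cre under an astrocyte promoter. Its groups were uninjured mice (4), mice at 2 d after a crush of the thoracic cord (5), mice at 5, 14, 28, 42 and 70 d (4 each), all labelled female except 1 Flow library at 5 d, and male mice at 5 d and 14 d (4 each). In the other line Cre was driven by the mGfap promoter without tamoxifen, so every descendant of a cell that ever used that promoter is tagged. Its groups were uninjured mice at postnatal day 63 (P63; 3 male and 2 female), female mice at 14 d after SCI (5), and uninjured mice at P0, P3, P7, P14, P21 and P35 (3 to 5 each). Of the mGfap mice only the P63 and the 14 d groups had Flow libraries. The tissue taken was a short block around the lesion centre.

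The libraries were deep, with 67253656 to 128400518 counts on genes in RiboTag (median 93933978) and 40710428 to 136008399 in Flow (median 97467271), and 0 pairs of libraries held identical counts. The pulldown enriched astrocyte genes in both lines. At 14 d 12 of 12 astrocyte markers were higher in RiboTag than in Flow in each line (22.6% of all genes in the Aldh1l1 and 27.2% in the mGfap line), with a median log2 ratio of 3.51 in the Aldh1l1 line and 3.72 in the mGfap line. Some libraries stood apart for the 10 genes. RiboTag libraries 1 and 4 of the mGfap line at 14 d were high, both fractions of animals 1 and 2 at 70 d were low in Trem2, Tyrobp, Cd68, Gpnmb and Spp1, and Flow libraries 2 and 4 at 2 d had low Tyrobp and Csf1r beside high Cx3cr1 and Aif1. Results that rest on them are given with and without these animals, a choice made after seeing the data.

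The 250 bases before the annotated start site are shown for 3 genes, picked after their values were seen. The basis was the rise in RiboTag level from uninjured mice to 5 d, which was least for P2ry12 (log2 difference 1.72 ± 0.31, SE) and large for Spp1 (8.10 ± 0.43) and Trem2 (8.34 ± 0.48). Arg1 rose most of the 10 (mean 0.440 to 818 CPM, counts scaled to library depth). Large rises were also seen in Gpnmb (16.6 to 7518 CPM) and Cd68 (2.85 to 1076 CPM). No window is shown for these genes. RefSeq start sites on GRCm38.p6 (mm10) were matched for 7 of the 10 genes, which gave 8 windows. Capitals mark GGAAGT, the core of the site of ETS factors such as PU.1, a regulator of the myeloid lineage, or TGANTCA, the site of AP-1, each searched on both strands.

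P2ry12 (chr3:59262986-59263235, minus strand): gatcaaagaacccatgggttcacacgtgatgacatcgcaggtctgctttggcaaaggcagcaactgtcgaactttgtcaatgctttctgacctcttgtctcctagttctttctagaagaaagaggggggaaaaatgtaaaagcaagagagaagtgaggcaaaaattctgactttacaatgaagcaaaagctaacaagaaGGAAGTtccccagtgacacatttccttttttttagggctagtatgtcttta
Spp1 (chr5:104434861-104435110, plus strand): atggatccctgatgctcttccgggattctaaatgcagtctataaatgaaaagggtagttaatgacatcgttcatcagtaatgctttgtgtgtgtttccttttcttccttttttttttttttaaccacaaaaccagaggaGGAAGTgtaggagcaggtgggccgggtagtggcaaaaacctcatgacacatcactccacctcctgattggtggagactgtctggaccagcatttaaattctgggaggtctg
Trem2 (chr17:48346151-48346400, plus strand): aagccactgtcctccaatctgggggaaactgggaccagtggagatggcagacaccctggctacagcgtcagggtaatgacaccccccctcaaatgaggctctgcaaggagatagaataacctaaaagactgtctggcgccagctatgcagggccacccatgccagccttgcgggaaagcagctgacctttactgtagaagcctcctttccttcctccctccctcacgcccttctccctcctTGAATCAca

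GGAAGT was present in 2 of the 8 windows, 51 bases before the start site of P2ry12 and 111 bases before that of Spp1. Of all 32851 windows of the same length, 19.7% held it. TGANTCA was also present in 2 of the 8 windows, those of Trem2, 9 bases before the start site, and Cd68, against 6.75% of all windows. The windows shown were thus all among those with a match. Those of Cx3cr1, Aif1 and Gpnmb and the other window of Spp1, none of them shown, held neither site. The E-box CACGTG was found in the window of P2ry12 and in 6.02% of all windows. These are matches of letters, and binding there was not measured.

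In the uninjured cord of the Aldh1l1 line 7 of these 10 genes were higher in the flow-through than in the pulldown, 1 was lower and 2 did not pass the test. Scaled to library depth and exon length (FPKM), the Flow libraries of the Aldh1l1 line held most of Spp1 (86.0 ± 5.37, SD, n = 4), then Tyrobp (49.0 ± 4.81), Csf1r (25.3 ± 2.21), Trem2 (15.2 ± 2.19), Cx3cr1 (11.2 ± 0.637), Cd68 (10.2 ± 0.564), Aif1 (7.28 ± 1.15), P2ry12 (3.69 ± 0.602), Gpnmb (1.61 ± 0.189) and Arg1 (0.517 ± 0.109). Cx3cr1 and Cd68 were the only neighbours in this order whose mean ± SD ranges overlapped. In the RiboTag libraries of the same mice Spp1 led again (56.2 ± 37.9 FPKM), followed by Tyrobp (6.93 ± 2.79) and Gpnmb (4.36 ± 0.547).

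Trem2 shows the pattern library by library. In uninjured Aldh1l1 mice its RiboTag libraries held 1.74, 1.50, 1.68 and 1.39 CPM (counts scaled to library depth) and the Flow libraries of the same animals 21.1, 15.6, 16.6 and 16.2 CPM. The fractions did not overlap, and the log2 ratio was -3.46 ± 0.39 (SE) (edgeR quasi-likelihood test, Benjamini-Hochberg adjusted p = 1.61e-12). In bulk libraries fewer cells of a type and less RNA per cell cannot be told apart. By the same test 7 of the 10 genes were lower in RiboTag than in Flow, where 32.6% of all genes tested were, with log2 ratios from -2.08 for P2ry12 to -3.64 for Cx3cr1.

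Gpnmb was the 1 gene of the 10 that was higher in RiboTag, at 17.8, 14.4, 18.8 and 15.3 CPM against 6.63, 5.33, 6.80 and 5.69 CPM in Flow, without overlap (log2 ratio 1.44 ± 0.39, adjusted p = 0.000858, where 22.8% of all genes were higher). That call did not hold with library totals in place of TMM scaling (1.01, adjusted p = 0.0153). Spp1 and Arg1 did not pass the test. The RiboTag libraries held 134, 159, 50.5 and 29.4 CPM of Spp1, a wide spread around the 135, 135, 147 and 153 CPM in Flow (-0.62 ± 0.31, adjusted p = 0.0783). With the animal as a block, which takes both fractions as coming from the same mouse, Spp1 passed (-0.91, adjusted p = 0.00275), as it did with library totals (-1.01, adjusted p = 0.00296) and without animal 2 (-1.03, adjusted p = 0.00991). Arg1 was low in both fractions, at 0.278 to 0.639 CPM in RiboTag and 0.590 to 0.977 CPM in Flow.

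**Figure D1:**
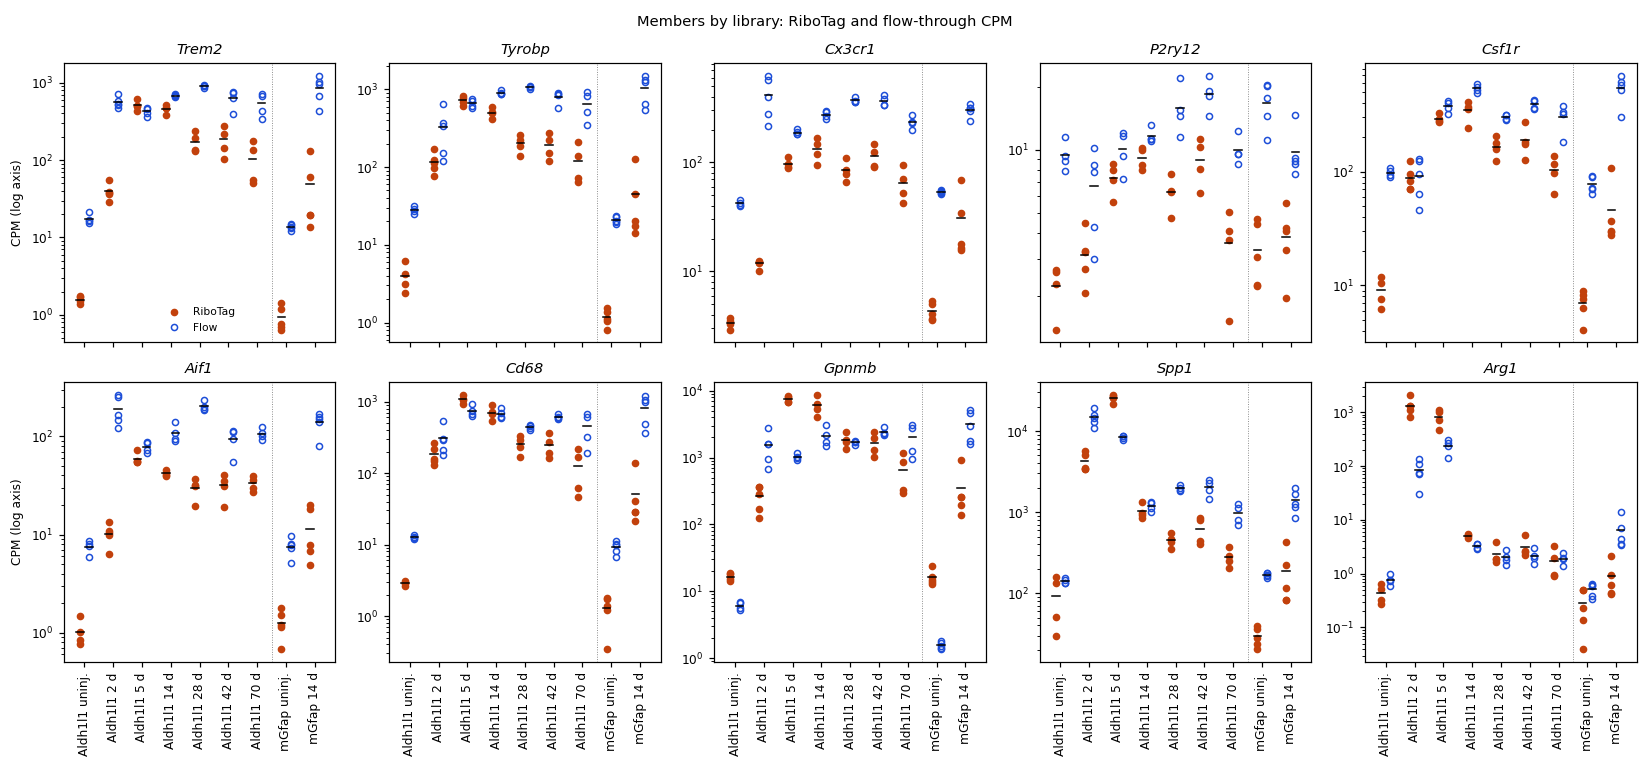
Level of each gene in every library, in CPM on a log axis, for uninjured mice and each time after SCI in the Aldh1l1 line, then uninjured mice and 14 d in the mGfap line. Filled points are RiboTag libraries, open points Flow libraries and bars group means. At 14 d the RiboTag and Flow levels of Trem2 lie close in the Aldh1l1 line (386 to 517 against 652 to 713 CPM) and far apart in the mGfap line (13.8 to 129 against 424 to 1227 CPM).

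After injury at least 8 of the 10 genes were higher in each fraction of the Aldh1l1 line at each time. Against uninjured mice, 9, 10, 10, 10, 10 and 9 of the 10 genes were higher in the RiboTag libraries at 2, 5 and 14 d and at 28, 42 and 70 d in turn, where 28%, 26.9%, 22.3%, 19.2%, 20.3% and 20.6% of all genes were. The gene not called was P2ry12, at 2 d (0.50 ± 0.29) and 70 d (0.68 ± 0.31). In the Flow libraries 8, 9, 9, 9, 10 and 9 were higher (30%, 24.8%, 23.3%, 25.3%, 24.7% and 21.3% of all genes). None of the 10 passed as lower at these times in this line, where 23.8%, 21.5%, 16.4%, 14.6%, 15.1% and 15.7% of all genes were lower in RiboTag and 36.5%, 27%, 23.6%, 25.8%, 22% and 19.5% in Flow. In Flow the call on Arg1 was lost at 70 d without any of 5 animals (1.18 to 1.31, adjusted p = 0.0147 to 0.0248) or without animals 1 and 2 together (1.32, adjusted p = 0.0189), at 42 d without animal 1 (1.29, adjusted p = 0.0131) and at 28 d without animal 2 (1.20, adjusted p = 0.0155) or uninjured animal 4 (1.28, adjusted p = 0.0132). P2ry12 passed in Flow at 42 d alone (0.98 ± 0.30), a call lost without any of 4 animals (0.87 to 0.98, adjusted p = 0.0101 to 0.0164) and with library totals (0.94, adjusted p = 0.0103).

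The signalling pair rose together. Trem2 reached 501, 504, 619 and 429 CPM in the RiboTag libraries at 5 d, when the Flow libraries held 405, 459, 469 and 365 CPM. Its RiboTag level was then 8.34 ± 0.48 above that of uninjured mice on the log2 scale and its Flow level 4.61 ± 0.40 above. Tyrobp stood at 678, 773, 821 and 605 CPM in RiboTag and 603, 748, 715 and 578 CPM in Flow at the same time. For both genes the fractions overlapped, and the log2 ratios of 0.28 ± 0.34 for Trem2 and 0.12 ± 0.37 for Tyrobp did not pass the test.

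Gpnmb, Spp1 and Arg1 were higher in the pulldown than in the flow-through at 5 d. The RiboTag libraries held 25900, 26910, 27960 and 21560 CPM of Spp1 and the Flow libraries 8669, 8820, 8237 and 7658 CPM, a log2 ratio of 1.62 ± 0.32 (adjusted p = 1.04e-05). Gpnmb stood at 8394, 7927, 6886 and 6865 CPM in RiboTag against 1159, 1018, 904 and 986 CPM in Flow (2.89 ± 0.40, adjusted p = 2.54e-09). For Arg1 the RiboTag libraries had 469, 1016, 1081 and 707 CPM and the Flow libraries 140.1, 311, 267 and 234 CPM (1.78 ± 0.38, adjusted p = 3.30e-05). In each of these genes every RiboTag library lay above every Flow library. They were the 3 of the 10 genes higher in RiboTag, where 25.5% of all genes were, and Cx3cr1 was the 1 that was lower (-0.95 ± 0.24, where 21.1% of all genes were). Lists of other genes were also counted, chosen with earlier results of these data known. At the same time 11 of 14 monocyte-derived macrophage, 7 of 16 general myeloid and 5 of 12 neutrophil genes were higher in RiboTag. The monocyte-derived genes summed to 1835 to 2497 CPM in RiboTag and 368 to 428 CPM in Flow, and the neutrophil genes to 122 to 322 and 64.7 to 128 CPM. Their part in these ratios was not tested.

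In the pulldown Arg1 was highest at 2 d. Its 5 RiboTag libraries held 2098, 816, 1305, 1081 and 1311 CPM and the Flow libraries of the same animals 133, 30.1, 73.8, 72.1 and 109.6 CPM. Every RiboTag library was above every Flow library, the log2 ratio was 3.98 ± 0.37 (15.8-fold, adjusted p = 2.85e-16), and the RiboTag level was 11.56 ± 0.58 above that of uninjured mice on the log2 scale. Genes of other lists also differed between the fractions at 2 d. Of 12 neutrophil genes 8 were higher in RiboTag, with sums of 476 to 1295 CPM in RiboTag and 86.7 to 244 CPM in Flow, and of 14 monocyte-derived macrophage genes 7 were higher and 4 lower, with sums of 1074 to 2944 and 707 to 1063 CPM, where 32.6% of all genes were higher and 31.2% lower. Of the 16 general myeloid genes 2 were higher and 8 lower, with sums of 2514 to 4612 CPM in RiboTag and 12830 to 16820 CPM in Flow. Their part in the ratio of Arg1 was not tested. By 14 d Arg1 had come down to 4.62 to 5.51 CPM in RiboTag and 2.88 to 3.62 CPM in Flow.

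The other genes behaved differently at 2 d, when 7 of the 10 were lower in RiboTag (31.2% of all genes were) and Arg1 was the 1 that was higher (32.6% of all genes were). Cx3cr1, the fractalkine receptor, was 12.1, 10.1, 12.2, 12.5 and 12.3 CPM in RiboTag and 218, 623, 398, 568 and 279.8 CPM in Flow, without overlap (-5.14 ± 0.25). Csf1r, the receptor for the growth factors of macrophages, held 123, 70.8, 95.9, 70.1 and 82.8 CPM in RiboTag, overlapping the 123, 45.9, 129, 63.2 and 95.0 CPM in Flow (-0.05 ± 0.24, adjusted p = 0.888). Gpnmb was 126 to 364 CPM in RiboTag and 669 to 2790 CPM in Flow (-2.54 ± 0.35), so it was lower in RiboTag at 2 d and higher both in uninjured mice and at 5 d. The ratio of Cd68 (-0.74 ± 0.32) passed with the animal as a block (-0.68, adjusted p = 0.00306).

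At 14 d 3 genes passed the test: Gpnmb was higher in RiboTag (1.52 ± 0.38, where 22.6% of all genes were), and Cx3cr1 (-1.05 ± 0.24) and Aif1 (-1.35 ± 0.29) were lower (23% of all genes). With the animal as a block 6 passed, since Tyrobp (-0.86, adjusted p = 0.00328), Csf1r (-0.66, adjusted p = 0.00543) and Arg1 (0.66, adjusted p = 0.00981) then also did. At 28, 42 and 70 d, 7, 8 and 9 genes were lower in RiboTag (27.9%, 25.5% and 27% of all genes), and none was higher (24.1%, 20.6% and 20.8% of all genes were).

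Trem2 at 70 d stood at 54.8, 50.1, 175 and 134 CPM in RiboTag and 432, 344, 709 and 671 CPM in Flow, animals 1 and 2 being the low ones in both fractions (-2.38 ± 0.36). Without these animals 8 genes were lower at 70 d, P2ry12 being lost (-1.05, adjusted p = 0.0328). The fractions of Cd68 and Gpnmb overlapped at 70 d. In a fit of that condition alone Cd68 (-1.80, adjusted p = 0.0109) and Gpnmb (-1.55, adjusted p = 0.0186) were not called. Cd68 was not called at 28 d (-0.78 ± 0.36), but was with the block (-0.82, adjusted p = 0.00181). Calls that rested on single animals were Csf1r at 28 d, lost without animal 1, 3 or 4 (-0.92 to -0.76, adjusted p = 0.0102 to 0.0316), Cd68 at 42 d, lost without animal 2 (-1.23, adjusted p = 0.0122) or 4 (-1.16, adjusted p = 0.0180), and P2ry12 at 42 d, lost without animal 4 (-0.80, adjusted p = 0.0468).

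Tested directly against the uninjured ratio, 9 genes had a higher ratio at 5 d (17.6% of all genes did) and 7 at 14 d (14.3%). None had a lower ratio (10.7% and 9.68% of all genes did). The rise at 5 d was 3.73 ± 0.52 for Trem2, 3.08 ± 0.39 for Csf1r and 1.62 ± 0.43 for P2ry12. Gpnmb was the gene not called at 5 d (1.45 ± 0.54, adjusted p = 0.0258), though it was with the block (1.45, adjusted p = 0.000244). At 14 d the genes not called were Gpnmb (0.08 ± 0.54), Spp1 (0.39 ± 0.44) and Arg1 (1.47 ± 0.61; with the block 1.48, adjusted p = 0.00125). The 14 d call on Aif1 was lost without 14 d animal 4 (1.42, adjusted p = 0.0141) or uninjured animal 4 (1.42, adjusted p = 0.0148), and that on Tyrobp without the latter (1.85, adjusted p = 0.0103).

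At 2 d the ratios of Csf1r (3.39 ± 0.37) and Arg1 (4.80 ± 0.59) were higher than in uninjured mice (30.2% of all genes were) and those of Cx3cr1 (-1.50 ± 0.33), Aif1 (-1.34 ± 0.41) and Gpnmb (-3.98 ± 0.53) were lower (20.3% of all genes). Without animals 2 and 4 at 2 d Cx3cr1 (-0.98, adjusted p = 0.0138) and Aif1 (-0.78, adjusted p = 0.137) no longer passed. Aif1 was also lost without animal 2 (-1.08, adjusted p = 0.0242), animal 4 (-1.20, adjusted p = 0.0135) or uninjured animal 1 (-1.18, adjusted p = 0.0217). With the block Tyrobp (1.61, adjusted p = 9.99e-05), P2ry12 (1.09, adjusted p = 0.00219) and Cd68 (1.47, adjusted p = 8.87e-05) also passed. Without animal 1 at 2 d Tyrobp (1.56, adjusted p = 0.00672) and Cd68 (1.55, adjusted p = 0.00621) passed, and Spp1 (-1.19 ± 0.42) passed without animal 3 (-1.31, adjusted p = 0.00941) or uninjured animal 3 or 4 (-1.41, adjusted p = 0.00588, and -1.52, adjusted p = 0.00172).

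At the late times Cx3cr1 and Csf1r were above their uninjured ratio at 28, 42 and 70 d, by 1.51 to 1.94 for Cx3cr1 and 1.90 to 2.58 for Csf1r (15.5%, 12.3% and 8.63% of all genes had a higher ratio). Trem2 was also called at 42 d (1.70 ± 0.50), a call lost without any of 6 animals (1.44 to 1.75, adjusted p = 0.0117 to 0.0365). The ratio of Spp1 was below the uninjured one at 28 d (-1.52 ± 0.44) and that of Gpnmb at 42 d (-1.98 ± 0.54) and 70 d (-3.04 ± 0.55), where 12.5%, 10.6% and 8.8% of all genes were lower. The call on Spp1 was lost without any of 4 animals (-1.45 to -1.11, adjusted p = 0.0141 to 0.0538) and that on Gpnmb at 42 d without animal 2 (-1.78, adjusted p = 0.0144) or 4 (-1.81, adjusted p = 0.0123). Without uninjured animal 4 Spp1 passed as lower at 70 d (-1.52, adjusted p = 0.00812).

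With the block, Cd68 (1.33, adjusted p = 0.00107) and Gpnmb (-1.36, adjusted p = 0.000567) passed as well at 28 d, Aif1 (1.33, adjusted p = 0.00125), Arg1 (1.33, adjusted p = 0.00544) and P2ry12 (1.04, adjusted p = 0.00880) at 42 d, and Aif1 (1.22, adjusted p = 0.00393) at 70 d.

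**Figure D2:**
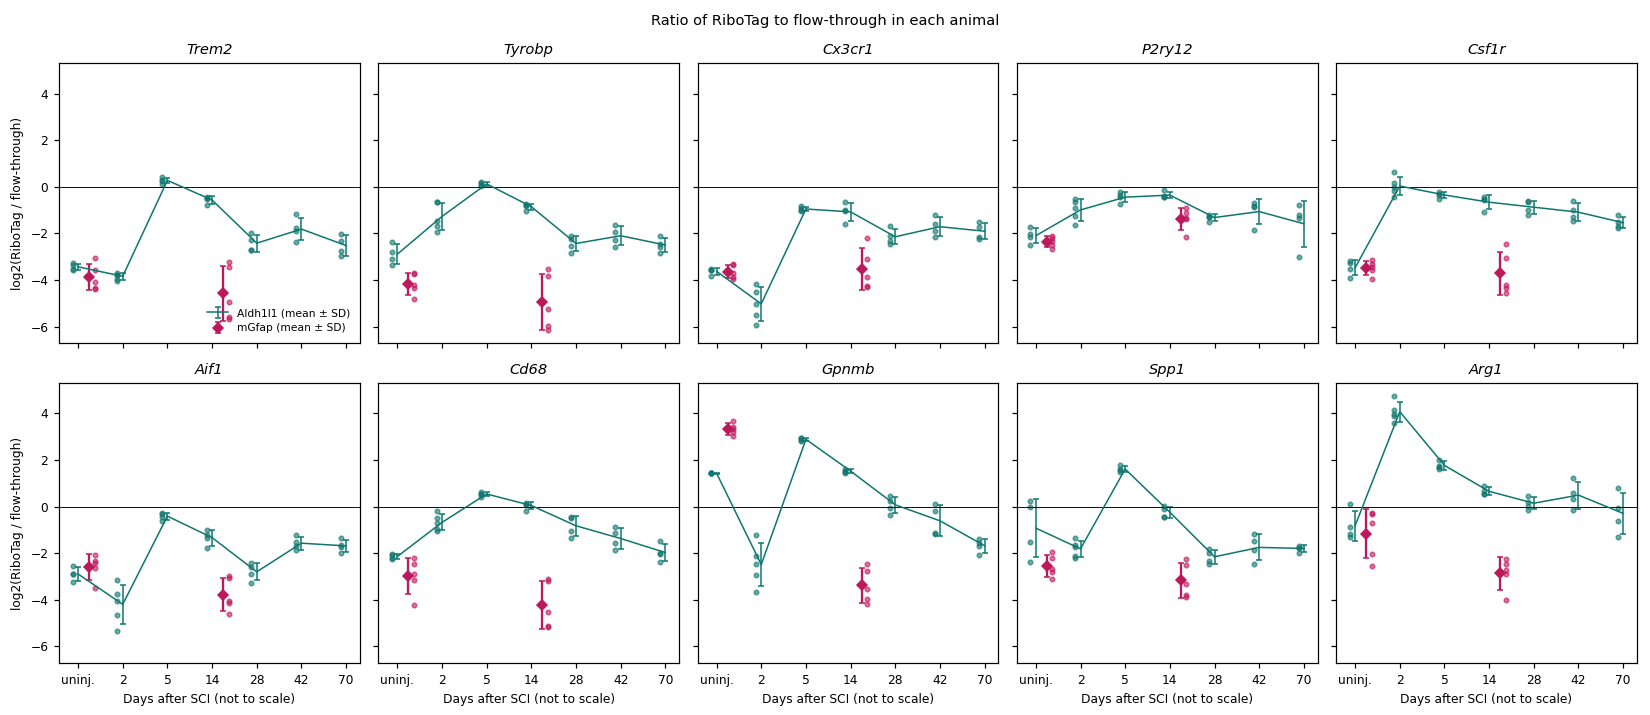
Log2 ratio of RiboTag to Flow level of each gene in each animal against days after SCI (days not drawn to scale), with the mean ± SD of the Aldh1l1 line (circles and line) and the mGfap line (diamonds, uninjured and 14 d only, drawn to the right of their time). For Trem2 at 14 d the mGfap animals lie below the Aldh1l1 animals, with mean log2 ratios of -4.58 and -0.57.

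The lines differed widely at 14 d. In the mGfap line all 10 genes were lower in RiboTag than in Flow (28.3% of all genes were), with log2 ratios from -1.35 ± 0.27 for P2ry12 to -4.54 ± 0.39 for Tyrobp. The ratio was lower in the mGfap line than in the Aldh1l1 line for 9 of the 10 genes, where 9.58% of all genes had a lower and 8.51% a higher ratio. The median difference over the 10 genes was -3.21 on the log2 scale, against 0.01 over all genes tested.

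For Trem2 the RiboTag libraries at 14 d held 386, 517, 472 and 468 CPM in the Aldh1l1 line and 61.3, 13.8, 19.5, 129 and 19.6 CPM in the mGfap line. The Flow libraries held 674, 713, 684 and 652 CPM and 666, 424, 949.6, 1227 and 1006 CPM. The lines were thus apart in RiboTag and overlapped in Flow, and the ratio was 11.9-fold lower in the mGfap line (log2 difference -3.57 ± 0.48, adjusted p = 1.89e-09). Tyrobp had 421, 587, 499.8 and 506 CPM against 45.3, 14.4, 20.4, 128 and 17.4 CPM in RiboTag, and 872, 987, 862 and 909.7 CPM against 643, 540.1, 1305, 1495 and 1253 CPM in Flow (-3.69 ± 0.52, adjusted p = 9.49e-09). It too was apart in RiboTag and overlapped in Flow.

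Gpnmb showed the largest difference of the 10, 26.2-fold. Its RiboTag libraries had 4056, 8642, 5233 and 6245 CPM in the Aldh1l1 line and 257, 136, 258, 911 and 192.2 CPM in the mGfap line, while its Flow libraries had 1479, 3093, 1698 and 2166 CPM and 1746, 1594, 4643, 5059 and 3007 CPM. It was above Flow in every Aldh1l1 animal and below Flow in every mGfap animal (-4.71 ± 0.53, adjusted p = 6.94e-12). Spp1 was 847, 1350, 970.1 and 924 CPM against 223, 83.4, 115, 423 and 83.3 CPM in RiboTag (-2.68 ± 0.43 for the ratio). For Arg1 the RiboTag levels were 4.62, 5.07, 5.22 and 5.51 CPM against 0.935, 0.434, 0.423, 2.14 and 0.620 CPM (-3.52 ± 0.54 for the ratio). In both genes all Aldh1l1 RiboTag libraries were above all mGfap RiboTag libraries.

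Among the receptors of resident microglia, the ratio of Csf1r was lower in the mGfap line (-2.91 ± 0.37) and so was that of Cx3cr1 (-2.24 ± 0.32). Their RiboTag levels were 242 to 411 against 27.6 to 107 CPM and 95.2 to 169 against 15.9 to 69.6 CPM. P2ry12 was the 1 gene that did not pass. Its RiboTag libraries held 8.43, 9.94, 8.02 and 10.2 CPM in the Aldh1l1 line and 1.97, 5.56, 4.23, 4.09 and 3.33 CPM in the mGfap line, and the ratios differed by -0.995 ± 0.40 (95% interval -1.78 to -0.21, adjusted p = 0.0598). With the animal as a block it passed (-1.02, adjusted p = 0.00743), which makes 10 of 10. The histological markers Aif1 (-2.25 ± 0.39) and Cd68 (-4.05 ± 0.50) were both lower, with RiboTag levels of 39.9 to 45.1 against 4.85 to 20.0 CPM and 528 to 884 against 21.6 to 137 CPM.

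By fraction, all 10 genes were lower in the RiboTag libraries of the mGfap line at 14 d (12.4% of all genes were), from -1.25 ± 0.28 for P2ry12 to -4.11 ± 0.39 for Gpnmb. In the Flow libraries 0 of the 10 passed edgeR's test (0.379% of all genes were higher and 1.44% lower in the mGfap line), and 1 had an unadjusted p under 0.05; DESeq2 also called 0. The Flow differences ran from -0.26 for P2ry12 (95% interval -0.81 to 0.29) to 1.01 for Arg1 (0.30 to 1.73).

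In the mGfap line at 14 d, RiboTag libraries 1 and 4 were the highest of their group for Trem2, Tyrobp, Cx3cr1, Csf1r, Aif1, Cd68, Spp1 and Arg1. Without these animals the ratio differed for 9 genes, by -4.93 for Trem2, -5.04 for Tyrobp, -5.50 for Gpnmb and -3.49 for Spp1. The animals were left out because their RiboTag levels were high. Larger differences were thus largely fixed by that choice and lend the result no support. P2ry12 stood at -0.95, adjusted p = 0.136.

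**Figure D3:**
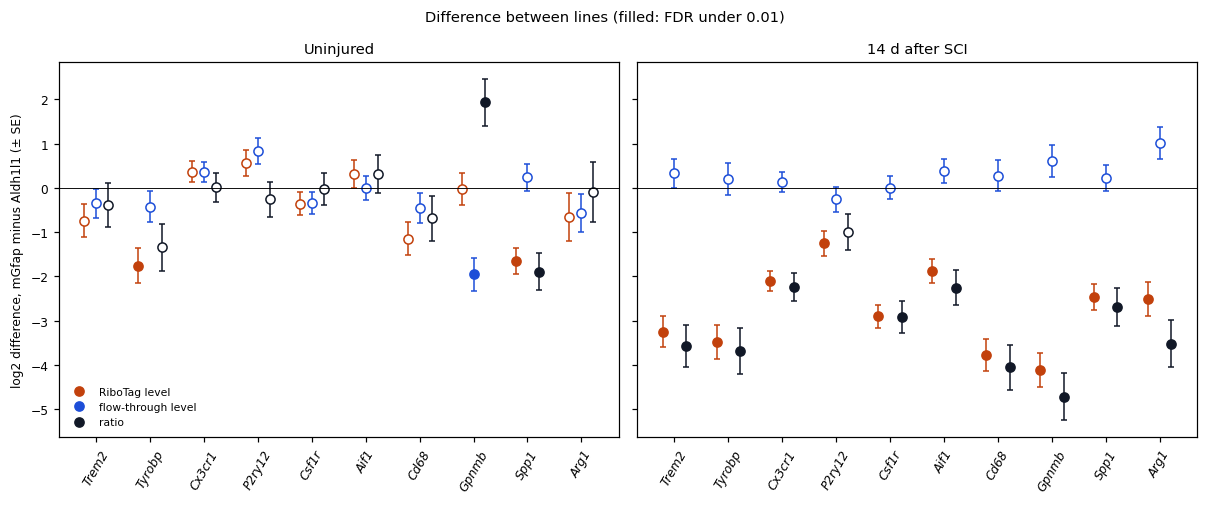
Difference between lines (mGfap minus Aldh1l1, log2, ± SE) in RiboTag level, Flow level and RiboTag to Flow ratio for each gene, uninjured (left) and 14 d after SCI (right). Filled points passed FDR under 0.01. At 14 d the RiboTag differences of all 10 genes lie between -1.25 and -4.11, and the Flow differences between -0.26 and 1.01.

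The uninjured lines were compared next, with young adult female Aldh1l1 mice against P63 mGfap mice of both sexes. Age and sex thus differed along with the line, and their parts cannot be told apart from it. In the mGfap line 8 genes were lower in RiboTag than in Flow (35.9% of all genes) and Gpnmb was higher (3.37 ± 0.38, 22.4% of all genes), the 1 gene not called being Arg1 (-0.91 ± 0.50; with the block -0.97, adjusted p = 0.00900). Between the lines the ratio of Spp1 was lower in the mGfap line (-1.89 ± 0.42, where 3.29% of all genes were) and that of Gpnmb higher (1.93 ± 0.53, where 2.63% were). The other 8 differences ran from -1.34 (95% interval -2.39 to -0.29) for Tyrobp to 0.31 (-0.52 to 1.15) for Aif1.

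Gpnmb lay at 12.9, 14.0, 14.5, 23.7 and 16.5 CPM in the RiboTag libraries of uninjured mGfap mice, overlapping the 14.4 to 18.8 CPM of the Aldh1l1 line. In Flow it lay at 1.38, 1.71, 1.44, 1.83 and 1.53 CPM, below the 5.33 to 6.80 CPM of the Aldh1l1 line without overlap (-1.95 ± 0.38, where 4.53% of all genes were lower). Its call on the ratio was lost without any 1 of the 9 animals (1.82 to 2.01, adjusted p = 0.0116 to 0.0231), with labelled sex as a term (2.02, adjusted p = 0.0117) and in a fit of only the 4 conditions compared (1.89, adjusted p = 0.0178).

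Spp1 was 20.6, 36.6, 27.9, 23.6 and 39.3 CPM in the RiboTag libraries of uninjured mGfap mice, all below Aldh1l1 animals 1, 2 and 3. Its call on the ratio was lost without Aldh1l1 animal 1 (-1.64, adjusted p = 0.0128) or 2 (-1.48, adjusted p = 0.0218) and in the fit of 4 conditions (-1.95, adjusted p = 0.0147). In RiboTag level, Tyrobp (-1.76 ± 0.40) and Spp1 (-1.66 ± 0.30) were lower in uninjured mGfap mice, where 8.51% of all genes were.

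The response to injury was compared as the change of the ratio from uninjured to 14 d. The uninjured mGfap mice were the P63 mice of both sexes, so age and sex cannot be told apart from injury and line here. In the mGfap line the ratio fell for Gpnmb (-6.56 ± 0.53) and Arg1 (-1.96 ± 0.63), where 12.5% of all genes fell. The call on Arg1 was lost without 14 d animal 3 or P63 animal 1, 2 or 5 (-1.93 to -1.70, adjusted p = 0.0173 to 0.0479). Without 14 d animals 1 and 4, 7 genes fell, among them Trem2 (-1.65, adjusted p = 0.000554) and Tyrobp (-1.73, adjusted p = 0.00145). Both animals were picked for high RiboTag levels, a choice that favours a fall. Without animal 4 alone Aif1 (-1.28) and Cd68 (-1.76) fell too, as Aif1 did without animal 1 (-1.22). With the block 5 passed, P2ry12 rising (0.99, adjusted p = 0.00388) and Aif1 (-1.18, adjusted p = 0.00113) and Cd68 (-1.32, adjusted p = 0.000669) falling besides Gpnmb and Arg1.

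The change was lower in the mGfap line than in the Aldh1l1 line for 7 of the 10 genes (3.84% of all genes, with 4.83% higher): Trem2 (-3.19 ± 0.69), Cx3cr1 (-2.25 ± 0.46), Csf1r (-2.89 ± 0.51), Aif1 (-2.57 ± 0.58), Cd68 (-3.37 ± 0.71), Gpnmb (-6.64 ± 0.74) and Arg1 (-3.42 ± 0.88). Tyrobp (-2.35 ± 0.73, adjusted p = 0.0193), Spp1 (-0.79 ± 0.59) and P2ry12 (-0.73 ± 0.57) did not pass. Tyrobp did with the block (-2.82, adjusted p = 4.40e-05), with DESeq2 (-2.43, adjusted p = 0.00894) and without mGfap animal 4 at 14 d (-3.07, adjusted p = 0.000195). Without mGfap animals 1 and 4 at 14 d 8 genes passed, Tyrobp among them (-3.70, adjusted p = 5.33e-06). The difference was then -4.54 for Trem2, -3.12 for Cx3cr1, -3.72 for Csf1r, -3.28 for Aif1, -4.37 for Cd68, -7.43 for Gpnmb and -3.81 for Arg1. The choice of animals with high RiboTag levels favours such larger differences. The call on Arg1 was lost without P63 animal 2 (-3.17, adjusted p = 0.0140) or 5 (-3.20, adjusted p = 0.0125) and in the fit of 4 conditions (-3.45, adjusted p = 0.0102).

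Levels rose after injury in the mGfap line too. In its RiboTag libraries 9 genes were higher at 14 d than at P63 (27.4% of all genes), Trem2 by 5.68 ± 0.39 and Cd68 by 5.31 ± 0.40 on the log2 scale, and P2ry12 was not called (0.21 ± 0.27). Without animals 1 and 4 the rises were smaller, 4.22 for Trem2, 3.88 for Tyrobp (5.26 with them), 4.35 for Cd68, 1.94 for Cx3cr1 (2.83), 2.04 for Csf1r (2.71), 2.36 for Aif1 (3.18), 3.58 for Gpnmb (4.43) and 1.67 for Spp1 (2.65), and these 8 still passed. The rise of Arg1 (1.70 ± 0.47) did not pass without animals 1 and 4 (0.84, adjusted p = 0.163), animal 4 alone (1.12, adjusted p = 0.0313) or P63 animal 3 (1.42, adjusted p = 0.0109). In Flow 9 were higher (28.1%), Gpnmb by 10.99 ± 0.52, and P2ry12 was lower (-0.78 ± 0.27, where 30.4% were). The call on P2ry12 was lost without animals 1 and 4 (-0.64, adjusted p = 0.0671), with library totals (-0.78, adjusted p = 0.0141) and without each of 7 single animals (-0.76 to -0.70, adjusted p = 0.0152 to 0.0273).

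Other genes of the pathway and of myeloid cells were counted by list. Of 13 partners and effectors of DAP12, 12 had a lower ratio in the mGfap line at 14 d, with a list median of -3.81 against 0.01 over all genes. Of all genes 9.58% had a lower ratio. Syk, the kinase that DAP12 recruits, averaged 104 CPM in Aldh1l1 and 8.41 CPM in mGfap RiboTag libraries and 47.4 and 62.7 CPM in Flow (-4.04 ± 0.39 for the ratio). Trem1 and Trem3, other receptors of the TREM family, differed by -5.47 ± 0.97 and -6.20 ± 1.44.

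Against that 9.58% of all genes, 16 of 16 general myeloid genes were lower (median -3.73), with Lyz2, the lysozyme of macrophages and neutrophils, at -5.25 ± 0.58. Of the monocyte-derived macrophage genes 14 of 14 were lower (median -4.97), with Ccr2, the receptor that brings monocytes from the blood, at -6.04 ± 0.51. This list, like the others, was chosen with earlier results of these data known. It holds genes that the authors report as enriched in the Aldh1l1 pulldown, coagulation factors among them, so its counts are no independent support. The authors also report Lyz2 and Spi1 of the general myeloid list and Cxcr2 of the neutrophil list as raised in that pulldown after SCI. The same limit holds for those lists. Of the perivascular macrophage genes 7 of 8 were lower (median -3.21), with the mannose receptor Mrc1 at -4.21 ± 0.37. Of the resident microglia genes 7 of 11 were lower (median -1.81), with Selplg at -3.39 ± 0.40. Of the disease-associated phagocyte genes 12 of 16 were lower (median -1.59), with Itgax at -4.02 ± 0.46. Before injury 11 of those 16 genes were higher in RiboTag than in Flow in each line, where 22.8% of all genes were in the Aldh1l1 and 22.4% in the mGfap line.

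The ligands were counted in the same way, and 0 of 3 passed edgeR's test for the ratio between the lines at 14 d, 2 having an unadjusted p under 0.05. Of all genes 9.58% had a lower and 8.51% a higher ratio in the mGfap line, for these genes and the receptors below. Csf1 and Il34, the growth factors that bind CSF1R, and Cx3cl1, the ligand of CX3CR1, differed by 0.52 ± 0.17 (adjusted p = 0.0128), -0.33 ± 0.33 and -0.40 ± 0.17. Csf1 averaged 174 CPM in Aldh1l1 and 187 CPM in mGfap RiboTag libraries and was higher there than in Flow in both lines (log2 ratios 0.67 ± 0.13 and 1.19 ± 0.11). Il34 was lower in RiboTag than in Flow in both (-1.44 ± 0.25 and -1.77 ± 0.22). Of the 7 receptors of osteopontin, Itga4 (-3.54 ± 0.35) and Itgb5 (-1.90 ± 0.21) had a lower ratio in the mGfap line, and Cd44 (-0.33 ± 0.23), Itgav (0.28 ± 0.18), Itgb1 (-0.11 ± 0.13), Itgb3 (0.04 ± 0.35) and Itga9 (0.56 ± 0.22) did not pass.

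Markers of other cells also differed between the lines at 14 d, when 9.58% of all genes had a lower and 8.51% a higher ratio in the mGfap line. All 12 neutrophil genes had a lower ratio in the mGfap line (median -7.08), with sums of 138 to 279 CPM in Aldh1l1 RiboTag, 111 to 152 CPM in Aldh1l1 Flow, 6.46 to 43.4 CPM in mGfap RiboTag and 148 to 1218 CPM in mGfap Flow libraries. All 5 erythrocyte genes were lower too (median -7.84). In Flow level 8 of 12 neutrophil and 5 of 5 erythrocyte genes were higher in the mGfap line (0.379% of all genes were), while 0 of 16 general myeloid genes passed edgeR's test and 2 had an unadjusted p under 0.05. The general myeloid genes summed to 13480 to 21600 CPM in Aldh1l1 RiboTag, 13540 to 15810 CPM in Aldh1l1 Flow, 441 to 3284 CPM in mGfap RiboTag and 11480 to 24880 CPM in mGfap Flow libraries.

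The oligodendrocyte list went the other way, with 10 of 10 higher in the mGfap line (median 4.78), as did 6 of 6 genes of oligodendrocyte precursors (3.39) and 4 of 6 ependymal genes (1.55). Of the astrocyte list 1 of 12 was higher, a share near the 8.51% of all genes (S100b, 1.06 ± 0.22; median 0.01), and of the neuronal list 0 of 10 passed edgeR's test and 0 had an unadjusted p under 0.05 (median 0.36). The remaining lists, to be read against the 9.58% of all genes that were lower and the 8.51% that were higher, gave 2 of 5 endothelial genes lower (Cdh5 and Flt1), 3 of 6 stromal genes lower (Dcn, Lum and Pdgfrb) and 1 higher (Postn), and 1 of 6 T cell genes lower (Cd2).

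Neutrophil and erythrocyte genes also differed before injury. In uninjured Aldh1l1 mice 9 of 12 neutrophil and 3 of 5 erythrocyte genes were higher in RiboTag than in Flow (22.8% of all genes were), with sums of 94.6 to 415 CPM against 38.5 to 104 CPM and of 27.1 to 101 CPM against 7.04 to 32.2 CPM. In P63 mGfap mice 12 of 12 and 3 of 5 were lower (35.9% of all genes were), with RiboTag sums of 2.62 to 8.21 and 0.615 to 4.97 CPM and Ly6g, a defining neutrophil marker, at 0 there. In the same uninjured Aldh1l1 mice 13 of 16 general myeloid and 9 of 11 resident microglia genes were lower in RiboTag (32.6% of all genes were). The part of these other cells in the values of the 10 genes was not tested.

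**Figure D4:**
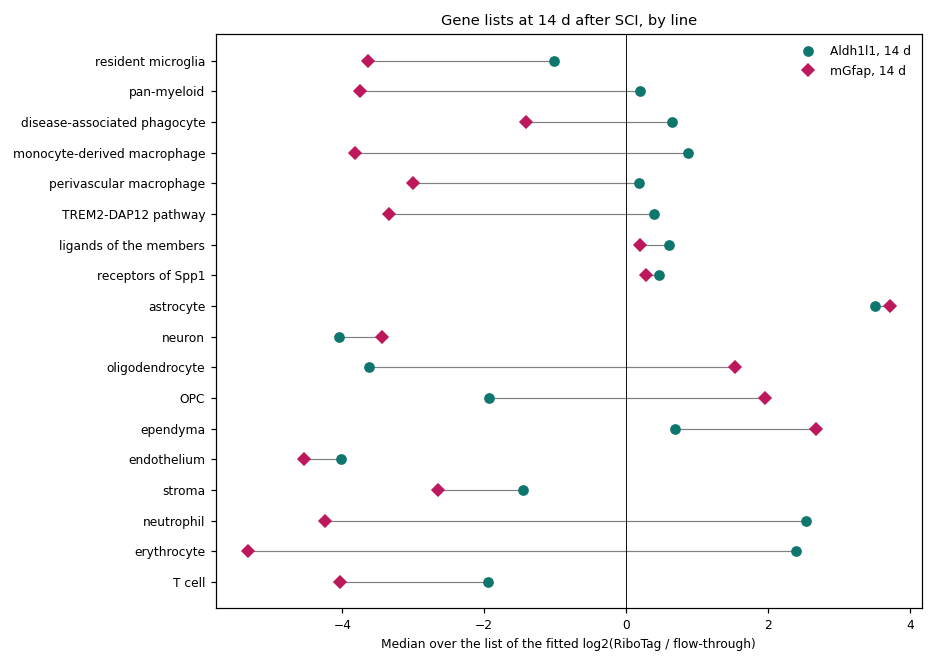
Median over each gene list of the fitted log2 RiboTag to Flow ratio at 14 d after SCI, in the Aldh1l1 line (circles) and the mGfap line (diamonds). The astrocyte medians of 3.51 and 3.72 nearly meet, the general myeloid medians lie at 0.20 and -3.75, and the oligodendrocyte medians at -3.62 and 1.54.

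Male mice of the Aldh1l1 line were measured at 5 d and 14 d. At 5 d Gpnmb, Spp1 and Arg1 were higher in RiboTag, with ratios of 2.85 ± 0.40, 1.43 ± 0.32 and 1.75 ± 0.38 (24.2% of all genes were higher), and Cx3cr1 was lower (-1.07 ± 0.24, where 20% were). With the block Cd68 (0.71, adjusted p = 0.00722) and P2ry12 (-0.76, adjusted p = 0.00375) passed besides. At 14 d Gpnmb was higher (1.42 ± 0.38, 19.2% of all genes) and Cx3cr1 (-1.15 ± 0.24), P2ry12 (-1.11 ± 0.30) and Aif1 (-0.89 ± 0.29) were lower (21.9% of all genes). The call on Aif1 was lost without any 1 of the 4 males (-0.97 to -0.81, adjusted p = 0.0133 to 0.0407), that on P2ry12 without male 3 (-0.80, adjusted p = 0.0497) and that on Gpnmb without male 4 (1.33, adjusted p = 0.0107) or with library totals (1.01, adjusted p = 0.0171). With the block Arg1 (1.11, adjusted p = 2.77e-05) and Csf1r (-0.70, adjusted p = 0.00418) passed besides.

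Between male and female mice, 0 of the 10 ratios differed at 5 d or 14 d by edgeR's test or DESeq2, and 0 had an unadjusted p under 0.05. By edgeR's test 0% of all genes had a higher and 0% a lower ratio in males at either time. With no gene called, this count cannot tell whether the 10 genes were like the others. The differences reached -0.20 at 5 d (95% interval -1.02 to 0.63) and -0.75 at 14 d (-1.58 to 0.07), both for P2ry12.

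The postnatal mGfap mice had RiboTag libraries only, so levels were compared with those at P63. Trem2 stayed between 0.268 and 1.98 CPM and Tyrobp between 0.128 and 3.38 CPM in all but 1 of the 28 libraries. Gpnmb showed the largest difference from P63 of the 10 at P0. It held 1.99, 0.857, 0.190 and 0.442 CPM at P0, 5.29 to 6.98 CPM at P14, 28.2 to 37.6 CPM at P21 and 13.4, 14.2, 14.7, 24.01 and 16.6 CPM at P63. The P0 and P63 libraries did not overlap (-4.24 ± 0.41, adjusted p = 1.03e-09).

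At P0 Gpnmb and Spp1 (-2.91 ± 0.50) were lower than at P63 (25.1% of all genes were), and Cx3cr1 (0.93 ± 0.29), P2ry12 (1.73 ± 0.30) and Csf1r (1.46 ± 0.27) were higher (25.1% of all genes). P2ry12 held 12.4, 7.18, 18.4 and 7.02 CPM at P0 against 2.33, 3.13, 4.46, 2.26 and 4.71 CPM at P63, without overlap. All P0 mice were male and the P63 mice of both sexes. The call on Cx3cr1 was lost without P0 animal 4 or P63 animal 1, 2 or 3 (0.71 to 0.91, adjusted p = 0.0144 to 0.0428) and with the replicate number as a block (0.98, adjusted p = 0.0110). Without P0 animal 1 Aif1 passed as lower (-1.80, adjusted p = 0.00651).

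Markers of other cells moved with age in the same libraries. At P0 6 of 6 stromal, 4 of 5 endothelial and 3 of 8 perivascular macrophage genes were higher than at P63, and 8 of 10 oligodendrocyte genes were lower (25.1% of all genes were higher and 25.1% lower). The stromal genes summed to 2735 to 6522 CPM at P0 and 138 to 221 CPM at P63, the endothelial genes to 34.4 to 98.2 and 4.66 to 6.26 CPM, and the perivascular macrophage genes to 25.6 to 79.0 and 4.89 to 8.33 CPM. The oligodendrocyte genes summed to 4558 to 10530 CPM at P0, 20230 to 25910 CPM at P21 and 8740 to 13420 CPM at P63. Their part in the differences by age was not tested.

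At P3 and P7, by edgeR's test, Gpnmb (-4.04 ± 0.46 and -3.68 ± 0.45) and Spp1 (-3.26 ± 0.57 and -2.80 ± 0.56) were the genes called, both lower (19.2% and 13% of all genes). DESeq2 also called Aif1 lower at P3 (-1.50, adjusted p = 0.00897; by edgeR -1.48 ± 0.59, adjusted p = 0.0391). At P14 Gpnmb (-1.50 ± 0.33), Spp1 (-1.62 ± 0.43) and P2ry12 (-0.96 ± 0.29) were lower (12.2% of all genes). The call on P2ry12 was lost without any of 7 animals (-1.03 to -0.81, adjusted p = 0.0113 to 0.0366) and with the block (-0.91, adjusted p = 0.0125), and that on Spp1 without any of 5 (-1.63 to -1.50, adjusted p = 0.0103 to 0.0132), while Csf1r passed as lower without P63 animal 1 (-0.88, adjusted p = 0.00876). At P21 none of the 10 passed edgeR's test or DESeq2 and 3 had an unadjusted p under 0.05 (5.42% of all genes were higher and 3.8% lower).

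At P35 Cx3cr1 was higher than at P63 (1.32 ± 0.29, 1.8% of all genes), with 20.7, 7.22, 9.87 and 6.45 CPM. Animal 1, the high one, also held 4.67 CPM of Trem2 and 95.1 CPM of Spp1, and without it the call was lost (0.83, adjusted p = 0.0408). It was also lost without P35 animal 3 or P63 animal 1, 2 or 3 (adjusted p up to 0.0200) and with the block (1.34, adjusted p = 0.0154). Csf1r passed without P35 animal 2 (1.35, adjusted p = 0.00174) and with DESeq2 (1.13, adjusted p = 0.00155).

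The genes whose ratio was most like that of Trem2 over the 11 conditions with both fractions were Laptm5, Tmem273, Slfn5, Cd84 and C1qc, with a root mean square difference of 0.23 to 0.32 on the log2 scale among 11983 candidates. The nearest to Arg1 were Cd14, Samsn1, Nfam1, Ccl6 and Was, at 0.53 to 0.67. For P2ry12 the nearest were Ubfd1, Camk2d, Ugcg, Mcph1 and Ssx2ip, at 0.15 to 0.18.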

How the data were processed

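RNA was measured by poly-A RNA-seq in 70 RiboTag and 47 Flow libraries of mouse spinal cord. The deposited values are raw counts per gene, which the authors made with featureCounts (default settings) after read trimming in Trimmomatic and HISAT2 alignment to the mm10 build. The files list 27179 gene identifiers, of which 25275 were named from RefSeq and 1904 had no name. In 18 files the order of genes differed, so genes were matched by identifier. Groups were taken from sample titles, and 1 Flow library of the 5 d female group that is labelled male was kept where its title puts it.

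Counts were tested with edgeR 4.0.16 (limma 3.58.1, R 4.3.3) by the quasi-likelihood F test with TMM scaling, the filterByExpr filter and Benjamini-Hochberg adjustment over all genes tested, at an FDR under 0.01. The 94 libraries of the 11 conditions with both fractions entered one fit of 22 groups and 20036 genes, and the 28 uninjured mGfap RiboTag libraries one fit of 7 groups and 18041 genes. Values are CPM with TMM scaling, a log2 ratio is RiboTag minus Flow, a difference between lines is mGfap minus Aldh1l1, and ± is the SE unless SD is named. FPKM was computed from CPM and RefSeq exon length. The spread behind the p-values was estimated from the libraries of all groups in a fit, with RiboTag and Flow libraries taken as unpaired. It is not the spread of the ratio between the animals of a single condition.

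RiboTag and Flow libraries with the same number in a condition came from the same mouse, by the series' description. At 5 d the fractions of 1 such pair carry different sex labels. The correlation of their deviations from the group means was -0.0247 to 0.529 (median 0.112), and the animal as a block was an alternative. It was -0.0247 to 0.0543 at 2 d and -0.0201 to 0.0344 at 28 d, near the values between different animals. The counts thus give the pairing little backing at these times. The others were DESeq2 1.42.0, RLE factors, library totals, no filter, an FDR under 0.05, a fit for each condition or for the 4 conditions of the lines, labelled sex as a term, the replicate number as a block, and each animal left out in turn. The method was tested on simulated data.

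The 10 genes and the gene lists (resident microglia, general myeloid, disease-associated phagocyte, monocyte-derived and perivascular macrophage, DAP12 pathway, ligands, osteopontin receptors and markers of other cells) were chosen with earlier results of these data known. All 10 genes were named in every comparison, and up to 4 genes of a list by the size of the line difference at 14 d among those called. Genes most alike were those with the smallest root mean square difference of the centred mean log2 ratios, among genes with a mean of at least 5 CPM.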

Additional observations from a re-analysis of the deposited data

Results flagged for a closer look

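Single libraries that lay far from the rest of their group were looked for in 260 groups of 4 or 5 libraries, 1 for each gene and condition, and 18 were found; chance alone gives about 1 in 20 groups. In the mGfap line at 14 d, RiboTag library 4 was the highest for Tyrobp (128 CPM), Csf1r (107 CPM), Cd68 (137 CPM) and Gpnmb (911 CPM), and Flow library 2 was the highest for P2ry12 (14.7 CPM). At P35, RiboTag library 1 was the highest for Trem2 (4.67 CPM) and Cd68 (3.89 CPM). At P14, RiboTag library 2 was the lowest for Spp1 (8.20 CPM).

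In the Aldh1l1 line the lowest libraries so found were Tyrobp in Flow library 2 at 42 d (574 CPM), Cx3cr1 in RiboTag library 2 at 2 d (10.1 CPM), Csf1r in RiboTag library 1 of the males at 5 d (218 CPM) and Gpnmb in RiboTag library 1 of the males at 14 d (4375 CPM). The highest were P2ry12 in Flow library 2 at 14 d (13.2 CPM), Aif1 in RiboTag library 3 at 5 d (72.8 CPM), Arg1 in RiboTag library 2 at 28 d (3.81 CPM) and Arg1 in RiboTag library 3 at 42 d (5.13 CPM). Flow library 3 of the males at 5 d was the highest for both Aif1 (139 CPM) and Arg1 (308 CPM).

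The lines differed by the test of the difference itself, on the log2 scale and as mGfap minus Aldh1l1. For the RiboTag to Flow ratio at 14 d the differences were -3.57 for Trem2, -3.69 for Tyrobp, -2.24 for Cx3cr1, -2.91 for Csf1r, -2.25 for Aif1, -4.05 for Cd68, -4.71 for Gpnmb, -2.68 for Spp1 and -3.52 for Arg1. In uninjured mice they were 1.93 for Gpnmb and -1.89 for Spp1. For the change of the ratio from uninjured to 14 d they were -3.19 for Trem2, -2.25 for Cx3cr1, -2.89 for Csf1r, -2.57 for Aif1, -3.37 for Cd68, -6.64 for Gpnmb and -3.42 for Arg1.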

How the results depend on the processing

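Under the alternatives that kept all animals or left out a pair, 298 of 323 counts of called genes stayed within 1.5 times the reported count and 25 did not. With 1 animal left out 338 of 365 did and 27 did not, and in none of these alternatives did a gene that was called reverse its direction. The cause of the changes was not tested.

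At an FDR under 0.05 the count went from 3 to 5 for the ratio at 14 d, from 5 to 9, 3 to 5 and 3 to 5 for the change of the ratio at 2, 28 and 70 d, from 2 to 5 for that change in the mGfap line, from 1 to 2 for Flow level between the uninjured lines and from 1 to 2 at P35. With the animal as a block it was 6 for the ratio at 14 d, 8, 5 and 7 for the change at 2, 28 and 42 d and 5 for the change in the mGfap line. In a fit for each condition it was 7 for the ratio at 5 d (reported 4), 14 d (3) and 14 d in males (4).

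With library totals it was 5 for the ratio at 14 d, 1 for the change in the mGfap line and 2 at P35, and DESeq2 also gave 2 at P35. Without a filter the change in the mGfap line gave 1. For the ratio between the uninjured lines (reported 2), labelled sex as a term gave 1 and the fit of 4 conditions 0. The replicate number as a block gave 0 at P35; across groups this number names different animals. Leaving out pairs of animals, added after seeing the data, gave 3 for the change at 2 d and 7 for the change in the mGfap line. With single animals left out the counts were 2 to 3 for the ratio at 14 d in males, 0 to 1 between the uninjured lines, 1 to 4 for the change in the mGfap line, 1 to 4 at P14 and 0 to 2 at P35. The block moved no other count by more than 1.5 times.

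Library totals in place of TMM scaling shifted the median log2 ratio of all genes by -0.427 to -0.12 over the 11 conditions, and the difference between lines by 0.191 at 14 d and 0.161 in uninjured mice. Groups of 3 to 5 animals limit the precision of every value, and depth limits Arg1 in adult uninjured mice, where it lay under 1 CPM in every library.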
